A study of Mus musculus with 4 samples.

Results

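The synaptic vesicle and fusion machinery was read here as 72 genes of the 20136 listed in 4 Drop-seq libraries of mouse BNST (bed nucleus of stria terminalis, part of the extended amygdala of the forebrain). Its members were chosen by symbol alone, with no measured value: the numbered synaptotagmins (Syt), the syntaxins (Stx) and syntaxin-binding proteins (Stxbp), Vamp1 to Vamp8, Snap23, Snap25, Snap29, Snap47 and Snap91, the vesicle proteins Sv2a to Sv2c, Syp, Synpr and Sypl, the synapsins (Syn), complexins (Cplx) and Rims genes, and Unc13a to Unc13c. Of these, 66 were listed in every library, 6 in fewer, and 6 had under 10 unique molecular identifiers (UMIs, each standing for 1 captured transcript) in all. Together they held 143865 UMIs, 1.03% of all UMIs deposited, and the 5 most abundant members held 49.1% of those.

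Transmitter release is driven by the zippering of vesicle and plasma membrane SNARE proteins: synaptobrevin (Vamp2, or its relative Vamp1) on the vesicle, and syntaxin (Stx1a) with Snap25 on the plasma membrane. Munc13 (Unc13a to Unc13c) and RIM (Rims) prime vesicles at the active zone, complexins clamp and assist the assembled SNARE complex, and synaptotagmin 1 (Syt1) is the calcium sensor. Other members of the same families (Vamp3, Vamp8, Snap23, Stx4a, Stx6, Stx7, Stxbp3a) serve membrane traffic outside the synapse in most cell types.

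Each library was a pool of BNST punches from 6 male wildtype C57BL/6J mice, 24 mice in all, housed on a reversed light cycle with free access to chow; the labels give no age and no treatment, so the only groups were the cell classes within a library, which the labels number as batches 1 to 4. After filters, 4181 cells were kept (837 to 1281 per library, with 2119143 to 4842995 UMIs per library and medians over cells of 1849 UMIs and 1129 genes); no kept cell barcode occurred in more than 1 library. Cells were put into classes by UMIs of marker genes that hold no member: 2535 neurons, 921 oligodendrocytes, 374 astrocytes, 107 oligodendrocyte precursors and 61 vascular cells, with 10 microglia and 4 fibroblasts that were not tested. Of the neurons, 2182 were GABAergic by Gad1, Gad2 and Slc32a1, and 83 glutamatergic by Slc17a6 and Slc17a7. Subtypes of GABAergic neurons, named below by the 1 or 2 marker genes that gated them, took in 1184 cells, and 998 GABAergic neurons had no subtype. The punches did not show where in or around the BNST a cell lay, so no subtype is tied to a position.

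Levels are CPM, the summed UMIs of a gene in a class and library scaled to a common total, written in the order of libraries 1 to 4 and followed by mean ± SD. UMIs count transcript ends and do not scale with transcript length, and no level is compared between genes except as a share within a family. Free RNA can carry neuronal transcripts into other cells: the 11 neuronal gate genes together stood at 1.88% of their neuronal level in oligodendrocytes, 3.01% in astrocytes, 3.57% in vascular cells and 7.70% in precursors (5.65% without Meg3). Their summed level per library was 13771 to 25342 CPM in neurons, 233 to 601 in oligodendrocytes, 308 to 801 in astrocytes, 1098 to 1594 in precursors and 457 to 910 in vascular cells. Of the 11 genes, 1 was at 0 in oligodendrocytes and in astrocytes (Slc17a7), 3 in precursors (Rbfox3, Slc17a6 and Slc17a7) and 6 in vascular cells. A member at or below such a share of its neuronal level in a glial class was read as background there. The gate itself limits these 11 genes in glial cells, so their share can understate the carry-over of other neuronal genes. A member above the share is therefore not shown to be free of carry-over.

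Promoter sequence for the members came from RefSeq (GRCm38.p6), as windows from 250 bases before to 50 after a gene start, and 55 of the 72 members had an entry. A GC box (GGGCGG on either strand) lay in the windows of 43 of the 55 members (78.2%), against 38.2% of all 27025 genes with a window. The TATA letters TATAAA were found for 3 members (5.45%, against 15.7% of all genes) and CCAAT for 18 (32.7%, against 41.1%). The cyclic-AMP response element TGACGTCA lay in 1 window, that of Syn1 (1.82%, against 2.03% of all genes), and TTCAGCACC, the left part of the RE1 element bound by the neuronal-gene repressor REST, in those of Syn1 and Unc13a (3.64%, against 0.433%); the RE1 core that joins its left and right parts was in no member window and in 0.0407% of all genes. A letter match describes these windows and is not a binding site. The 4 promoters printed belong to genes the results turn on: Cplx1 and Cplx2, paralogues whose levels differed between subtypes; Sv2a, high in neurons and in oligodendrocytes; and Syn1, even over the subtypes. Each is written 5′ to 3′ on the gene's strand, without bases inside the GENCODE gene or after the RefSeq start, with GC boxes, the cyclic-AMP element and the left part of RE1 in capitals. Cplx1 lies at chr5:108550028-108550277 (minus strand, 250 bases), Cplx2 at chr13:54302306-54302555 (plus strand, 250 bases), Syn1 at chrX:20921005-20921168 (minus strand, 164 bases) and Sv2a at chr3:96180977-96181150 (plus strand, 174 bases).
Cplx1: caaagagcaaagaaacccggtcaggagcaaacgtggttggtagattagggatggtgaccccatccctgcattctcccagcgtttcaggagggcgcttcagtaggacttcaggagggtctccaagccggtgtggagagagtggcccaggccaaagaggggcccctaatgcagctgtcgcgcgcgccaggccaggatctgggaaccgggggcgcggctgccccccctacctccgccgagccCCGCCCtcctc
Cplx2: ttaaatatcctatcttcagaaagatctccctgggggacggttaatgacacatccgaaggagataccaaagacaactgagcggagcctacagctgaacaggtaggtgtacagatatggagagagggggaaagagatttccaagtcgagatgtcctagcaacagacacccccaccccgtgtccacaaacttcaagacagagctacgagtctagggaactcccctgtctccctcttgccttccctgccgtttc
Syn1: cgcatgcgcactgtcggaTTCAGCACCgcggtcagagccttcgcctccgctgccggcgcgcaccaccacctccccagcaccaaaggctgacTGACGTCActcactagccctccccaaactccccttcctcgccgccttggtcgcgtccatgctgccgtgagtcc
Sv2a: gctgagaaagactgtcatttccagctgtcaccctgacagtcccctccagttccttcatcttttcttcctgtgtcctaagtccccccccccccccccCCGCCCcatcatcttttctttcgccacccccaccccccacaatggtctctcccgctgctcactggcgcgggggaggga
Cplx1 and Sv2a show 1 GC box each and Syn1 both other elements, while the Cplx2 window holds none of these letters. The RefSeq start used for Cplx2 lies upstream of the GENCODE gene (chr13:54371349-54383917), so its window need not be the promoter used in these cells.

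The first comparison asked where the machinery lies between neurons and all gated non-neuronal cells. Neurons gave 1.15%, 1.16%, 1.32% and 1.26% of their UMIs to the members in libraries 1 to 4 (1.22% ± 0.0815, SD, n = 4), and non-neuronal cells 0.421%, 0.469%, 0.539% and 0.550% (0.495% ± 0.0609). The share was higher in neurons in all 4 libraries, and the ranges did not overlap. Among non-neuronal classes it was 0.552% ± 0.0652 in oligodendrocytes, 0.478% ± 0.0594 in precursors, 0.285% ± 0.0414 in astrocytes and 0.286% ± 0.0324 in vascular cells (3 libraries, since library 4 had 7 vascular cells). Of the 72 members, 60 passed the filter on low counts and 56 of those (93.3%) were called by edgeR's quasi-likelihood test with a library block (Benjamini-Hochberg adjusted p at most 0.05): 39 were higher in neurons and 17 lower. Of all 10164 genes tested, 71.0% were called, 37.2% higher and 33.7% lower; the members' median log2 difference was 1.92 and that of all tested genes 0.06. The difference had 1 sign in all 4 libraries for 55 of the 56, and for 6508 of the 7214 genes called in all. Stxbp2, Stx16, Stx18 and Syt9 were tested and not called.

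The plasma membrane and vesicle SNAREs of release and their sensor were high in every neuronal sum. Snap25, the membrane SNARE cut by several botulinum toxins, stood at 1755, 1668, 1726 and 1682 CPM in neurons (1708 ± 40.3) and 26.3, 22.1, 35.8 and 51.2 in non-neuronal cells (33.8 ± 12.9), a log2 difference of 5.41 (SE 0.144, adjusted p = 5.33e-34). Syt1 stood at 1479, 1641, 2055 and 1721 CPM in neurons (1724 ± 242) against 13.8, 33.2, 41.2 and 58.8 (36.8 ± 18.7), a log2 difference of 5.36 (SE 0.151, adjusted p = 5.34e-33). For both genes every neuronal library lay far above every non-neuronal one, and library 1 was the lowest for Syt1 in both classes. Vamp2, the main synaptobrevin of forebrain synapses, differed less: 255, 219, 296 and 292 CPM in neurons (266 ± 36.3) against 41.5, 37.6, 69.9 and 51.2 (50.0 ± 14.4), log2 2.11 (SE 0.139). Its groups did not overlap, but its level outside neurons was above the share the neuronal gate genes reached there. The log2 difference was 3.03 for Stx1a, a syntaxin of the release complex (34.6 against 2.92 CPM). Vamp1, the second synaptobrevin, was higher in neurons by 2.03 on the log2 scale.

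Cplx1, Cplx2, Rims1, Unc13a and Unc13c, of the clamping and priming steps, were also higher in neurons. Cplx1 stood at 180, 189, 184 and 183 CPM in neurons (184 ± 3.71) against 4.71, log2 5.11 (SE 0.275, adjusted p = 9.23e-22), and Cplx2 at 620, 550, 765 and 724 (665 ± 97.9) against 38.3, log2 3.87 (SE 0.141). Cplx1 was the steadier of the complexins over libraries, and library 3 was the highest for Cplx2. The active-zone scaffold Rims1 (86.5 against 7.03 CPM) and the priming factor Unc13a (36.3 against 4.03) were higher by 3.38 and 2.69 on the log2 scale. Unc13c, a priming factor with a narrow range in the brain, was higher by only 1.28, and the class in which it was highest was not neurons.

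Syt5, Sv2b, Syp, Syn1 and Syn2, whose products lie on vesicles, were higher in neurons. The largest rises in neurons among called members were those of Syt5 at 5.93 (SE 0.219, adjusted p = 2.98e-28; 333, 414, 307 and 428 CPM against a mean of 4.85) and Sv2b at 5.68 (SE 0.627; 34.9 against 0.640 CPM, the latter 1 UMI; 4.82 to 8.67 over the alternatives). Syt13 and Syt4, synaptotagmins outside the sensors of fast release, followed Snap25, Syt1 and Cplx1 at 4.93 and 4.80. Synaptophysin (Syp), a tetraspan vesicle protein, stood at 235, 235, 343 and 346 CPM in neurons (290 ± 63.2) against 12.2, log2 4.33 (SE 0.192). Its neuronal level was higher in libraries 3 and 4 than in 1 and 2. The synapsins, which tether vesicles, gave 4.43 for Syn2 (SE 0.154; 908 ± 109 against 35.4 CPM) and 3.71 for Syn1 (148 against 8.87). Syn1 overlaps Araf and Timp1 on the opposite strand, and Araf stood at 450 CPM in neurons and 101 in oligodendrocytes. Without knowing whether counting used strand, reads of Syn1 and Araf cannot be told apart where they overlap. Sv2c, Cplx3 and Syt2 did not pass the filter: they had 103, 76 and 58 UMIs in neurons and 0 in non-neuronal cells. Cplx3 stood at 13.5 CPM in library 1 and at 3.46, 3.96 and 3.76 in the others, and Syt2 at 12.7 in library 4 and at 4.18, 3.96 and 3.96 in the others, while 3 counts over the non-neuronal cells would be 1.41 CPM.

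**Figure D1:**
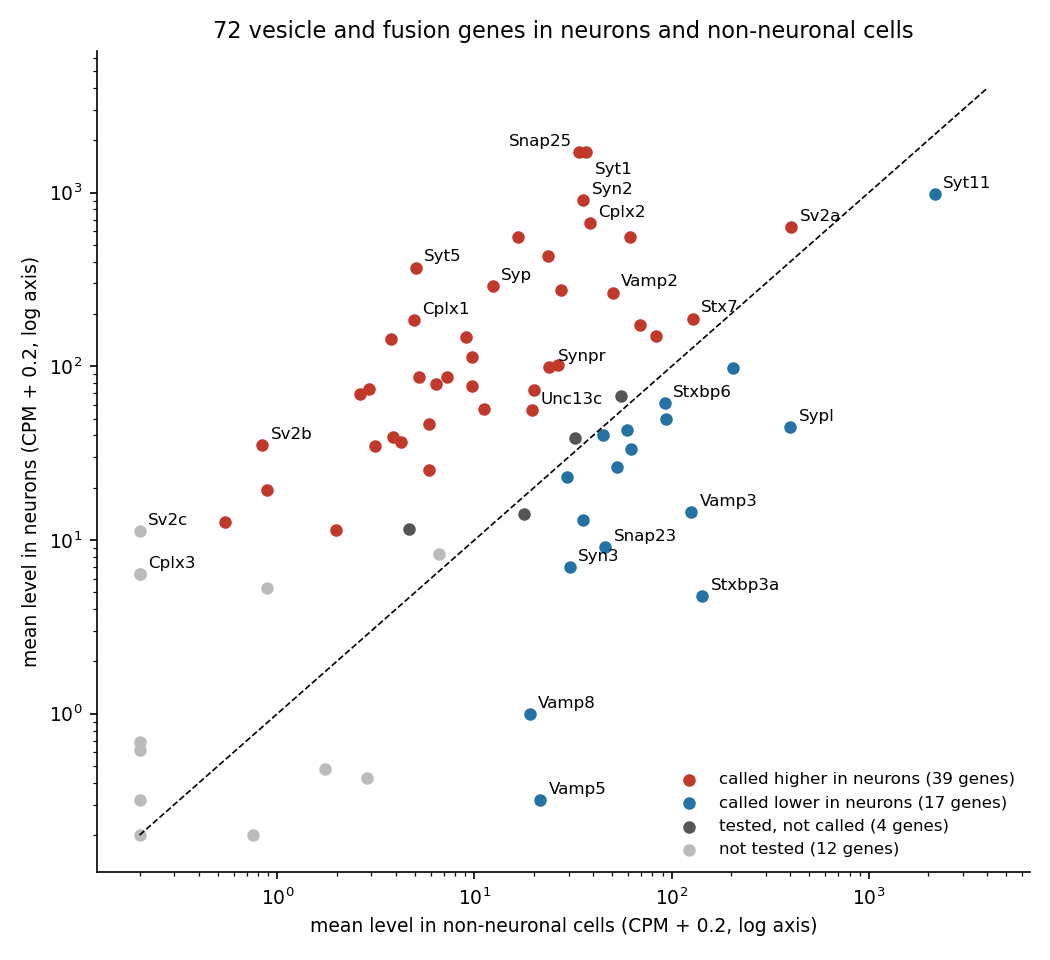
Each of the 72 members at its mean level in non-neuronal cells (x, CPM plus a small offset, log axis) and in neurons (y, same scale), coloured by the test; the dashed line marks equal levels. Snap25 and Syt1 lie far above the line, Vamp5, Stxbp3a and Vamp8 far below it, and Sv2a just above it.

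Among the 17 members lower in neurons were Stxbp3a, Vamp3, Sypl, Snap23, Vamp5, Vamp8 and Stx4a. The log2 difference was −5.23 for Stxbp3a, which pairs with syntaxin 4 (SE 0.205, adjusted p = 3.07e-27): its level was 5.41, 2.47, 6.60 and 3.76 CPM in neurons and 145, 153, 143 and 130 in non-neuronal cells (143 ± 9.25). Vamp3, the widely expressed cellubrevin, stood at 14.3 CPM in neurons against 140, 162, 113 and 89.5, log2 −3.49 (SE 0.183, adjusted p = 2.76e-22). Sypl, the synaptophysin relative found in many tissues, stood at 43.8, 43.0, 48.8 and 41.8 CPM in neurons (44.4 ± 3.07) against 400, log2 −3.48 (SE 0.108). In each of these genes the lowest non-neuronal library was above the highest neuronal one. Snap23, the broadly expressed relative of Snap25, stood at 8.91 CPM in neurons against 46.0, log2 −2.72 (SE 0.263, adjusted p = 8.02e-13). Vamp5 and Vamp8, of muscle and of endosomal and secretory membranes, had 1 and 8 UMIs in all neurons against 48 and 39 in fewer, shallower non-neuronal cells, log2 −7.25 (SE 0.651) and −4.66 (SE 0.526). Stx4a, the plasma membrane syntaxin of many cell types, stood at 98.1 against 205 CPM, log2 −1.36; it overlaps a gene on the opposite strand, and whether counting used strand is not given in the sources used here. Snap25 made up 99.5% of Snap25 and Snap23 UMIs in neurons; in oligodendrocytes the share was 27.5% ± 10.1, but Snap25 stood there at 0.965% of its neuronal level, below the 1.88% of the neuronal gate genes, and was read as background.

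Sv2a, Syt11 and Stxbp6 were abundant in oligodendrocytes as well. Sv2a, the vesicle glycoprotein bound by levetiracetam, stood at 614, 586, 724 and 608 CPM in neurons (633 ± 61.6) and 469, 472, 638 and 543 in oligodendrocytes (530 ± 79.4), while Sv2b had 0 UMIs in oligodendrocytes, where 3 counts would be 1.91 CPM. The neuronal and oligodendrocyte ranges of Sv2a overlapped, and the log2 difference between neurons and all non-neuronal cells was 0.35 (SE 0.0913, adjusted p = 0.000668; not called without the library block or with at least 800 genes per cell). Syt11, a synaptotagmin that does not bind calcium and acts in vesicle and membrane recycling, stood at 765, 916, 1103 and 1151 CPM in neurons (984 ± 178) and 1823, 2479, 3019 and 3127 in oligodendrocytes (2612 ± 598). Syt11 was lower in neurons than in the non-neuronal sum, which is mostly oligodendrocytes, by a log2 difference of −1.42 (SE 0.0852, adjusted p = 4.69e-20). Libraries 1 and 2 lay below 3 and 4 in neurons and in oligodendrocytes. Its level in precursors was 176% of that in neurons, but 77.6% in astrocytes and 9.10% in vascular cells. Stxbp6 (amisyn), which binds SNAREs and limits fusion, stood at 66.2, 61.4, 72.6 and 45.1 CPM in neurons against 122, 118, 118 and 121 in oligodendrocytes, log2 −0.88 for neurons against non-neuronal cells. Only oligodendrocytes were above neurons for Stxbp6: astrocytes, precursors and vascular cells were at 4.67%, 65.5% and 39.4% of its neuronal level. Stx7, an endosomal syntaxin, was near the threshold (log2 0.25, adjusted p = 0.0484) and lost its call without library 1 (0.29) or library 4 (0.19).

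Because depth differed between classes, shares of cells with a UMI were also taken after thinning each cell to 1000 UMIs. Median depth was 3169 UMIs in neurons, 1387 in oligodendrocytes, 821.5 in astrocytes, 1000 in precursors and 816 in vascular cells, and thinning left out 367 neurons, 219 oligodendrocytes, 263 astrocytes, 53 precursors and 40 vascular cells as too shallow. At this depth Snap25 was found in 77.5% of neurons, 1.11% of oligodendrocytes, 2.25% of astrocytes and 11.7% of precursors (unthinned 90.4%, 2.68%, 4.49% and 14.7%). Sv2a was found in 44.7% of neurons and 41.7% of oligodendrocytes, 12.4% of precursors and 0% of the 111 remaining astrocytes, a count whose upper limit is 2.70% for UMI-positive cells but sets none for cells expressing the gene (unthinned 73.5% of neurons, 52.9% of oligodendrocytes and 1.23% of astrocytes). The oligodendrocyte share of Sv2a was thus far above that of Snap25 in the same cells.

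Within the non-neuronal cells, each class was compared with the other 3 together. Oligodendrocytes held 1570239 of the 2124457 non-neuronal UMIs. The fits of astrocytes, precursors and vascular cells were therefore mainly against oligodendrocytes. In oligodendrocytes 26 members were tested and 16 called, 10 higher and 6 lower (of all 4685 genes tested 54.5% were called, 25.7% higher and 28.8% lower). Sv2a was higher by 3.81 (SE 0.265, adjusted p = 1.77e-20), Stxbp6 by 3.18 (SE 0.392, adjusted p = 1.17e-10), Sypl by 2.15 (SE 0.195), Syt11 by 1.77 (SE 0.141) and the endosomal syntaxin Stx6 by 1.73, all on the log2 scale. Sypl stood at 497, 508, 539 and 446 CPM in oligodendrocytes, against 118 in astrocytes and 40.5 in precursors. Sv2a was at 19.2 CPM in astrocytes (0, 0, 10.2 and 66.7 by library) and 138 in precursors (157, 44.1, 110 and 241), and had 0 UMIs in vascular cells, where 3 counts would be 36.4 CPM. Every oligodendrocyte library was above every library of those 3 classes for Sv2a. Lower in oligodendrocytes were Syn3 (−5.40), Unc13c (−3.40), Cplx2 (−2.91), Syn2 (−2.48), Stxbp4 (−2.05) and Snap25 (−2.04). Synaptoporin (Synpr), a vesicle protein related to synaptophysin, had 48 UMIs in oligodendrocytes, at 24.3, 27.2, 28.9 and 48.4 CPM (32.2 ± 11.0), which is 31.5% of its neuronal level, and 0 UMIs in astrocytes, precursors and vascular cells, where 3 counts would be 8.63, 24.2 and 36.4 CPM; it was not tested between the glial classes.

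In astrocytes 21 members were tested and 11 called, 3 higher and 8 lower (of all genes tested 50.5% were called, 24.0% higher and 26.5% lower). Cplx2 stood at 104, 134, 153 and 100 CPM in astrocytes (123 ± 25.4), log2 2.62 above the other non-neuronal classes (SE 0.380, adjusted p = 1.27e-08), and was present in 11.8% of astrocytes and 1.17% of oligodendrocytes at 1000 UMIs. Syn3, a synapsin also known from neural progenitors, stood at 130, 134, 123 and 100 CPM in astrocytes (122 ± 15.2), 112 in vascular cells, 6.75 in neurons and 1.69 in oligodendrocytes, log2 3.24 in astrocytes (SE 0.395, adjusted p = 6.99e-11). Syn3 holds the gene Timp3 on its opposite strand, and Timp3, a protease inhibitor, was likewise high in astrocytes (1386 CPM) and vascular cells (1763) and low in neurons (16.7) and oligodendrocytes (17.3); reads of the pair cannot be told apart without strand. Syn2 was higher in astrocytes by 1.21 (adjusted p = 0.0118, 3 of 4 libraries) and likewise holds Timp4, at 256 CPM in astrocytes, 92.3 in precursors and 0.714 in neurons. Vamp1 stood at 34.7, 40.2, 81.8 and 50.0 CPM in astrocytes (51.7 ± 21.1, 18 UMIs), close to 56.9 ± 4.00 in neurons and above 3.38 in oligodendrocytes; it overlaps Tapbpl and Cd27 on the opposite strand. Stxbp6 (−5.07), Sv2a (−5.05), Sypl (−2.00), Vamp3 (−1.97) and Stx6 (−1.89) were the largest falls in astrocytes.

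In precursors 20 members were tested and 10 called, 3 higher and 7 lower (of all genes tested 36.5% were called, 15.6% higher and 20.8% lower). Unc13c stood at 126, 176, 165 and 181 CPM in precursors (162 ± 25.1, 20 UMIs), which is 308% of its neuronal level, against 5.24 in oligodendrocytes and 20.3 in astrocytes, log2 3.57 (SE 0.515, adjusted p = 5.41e-11). Every precursor library was above every neuronal library, whose highest was 79.8 CPM. Those neuronal sums take all neurons together, and the Ppp1r1b/Crym subtype described below overlapped the precursors for Unc13c. Snap25 stood at 188, 88.2, 221 and 211 CPM (177 ± 60.6), log2 2.47 (SE 0.444, adjusted p = 2.20e-07), and Syn2 at 188, 176, 82.7 and 361 (202 ± 116), log2 2.56 (SE 0.432, adjusted p = 2.96e-08). Snap25 here was 10.8% of its neuronal level, beside 7.70% for the neuronal gate genes in the same cells, and the part of carried-over neuronal RNA in it was not tested. Rims2 stood at 62.8, 309, 82.7 and 30.1 CPM and Syt16 at 157, 0, 110 and 181 in precursors, a spread too wide to set them against their neuronal means of 101 and 77.2. Lower in precursors than in the other classes together were Sypl (−3.82), Stxbp3a (−2.63), Sv2a (−2.00), Vamp3 (−1.40) and Syt11 (−0.88). The call for Vamp3 was lost without library 1 (−1.14), with DESeq2 and with a stricter gate. As a share of the neuronal level, precursors were above astrocytes for Syt11 (176% against 77.6%), Vamp3 (475% against 275%) and Sv2a (23.2% against 2.30%). They were below astrocytes for Sypl (91.6% against 268%) and Stxbp3a (697% against 2113%).

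In vascular cells (libraries 1 to 3) 18 members were tested and 3 called, 1 higher and 2 lower (of all genes tested 28.6% were called, 10.8% higher and 17.8% lower). Vamp8, a SNARE of endosomes and regulated secretion in non-neuronal cells, stood at 144, 84.5 and 114 CPM (114 ± 29.9, 9 UMIs), log2 2.70 (SE 0.720, adjusted p = 0.00111), and was not called without library 1 (1.61). Its level was 46.9 CPM in astrocytes, 9.17 in oligodendrocytes and below the 24.2 CPM that 3 counts would give in precursors, which had 0 UMIs. Sv2a and Syt11 were lower: Sv2a had 0 UMIs, and Syt11 stood at 96.2, 0 and 228 CPM, log2 −4.98 (SE 0.527, adjusted p = 1.40e-19). Of the 65 members with at least 30 UMIs over the gated classes, 35 were highest in neurons, 10 in oligodendrocytes, 2 in astrocytes, 6 in precursors and 12 in vascular cells. The last 2 classes rest on the fewest cells, and a class could lead on very few UMIs. Syt14 led in vascular cells at 12.1 CPM, where 3 counts would be 36.4 CPM. This count was not taken over all genes.

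**Figure D2:**
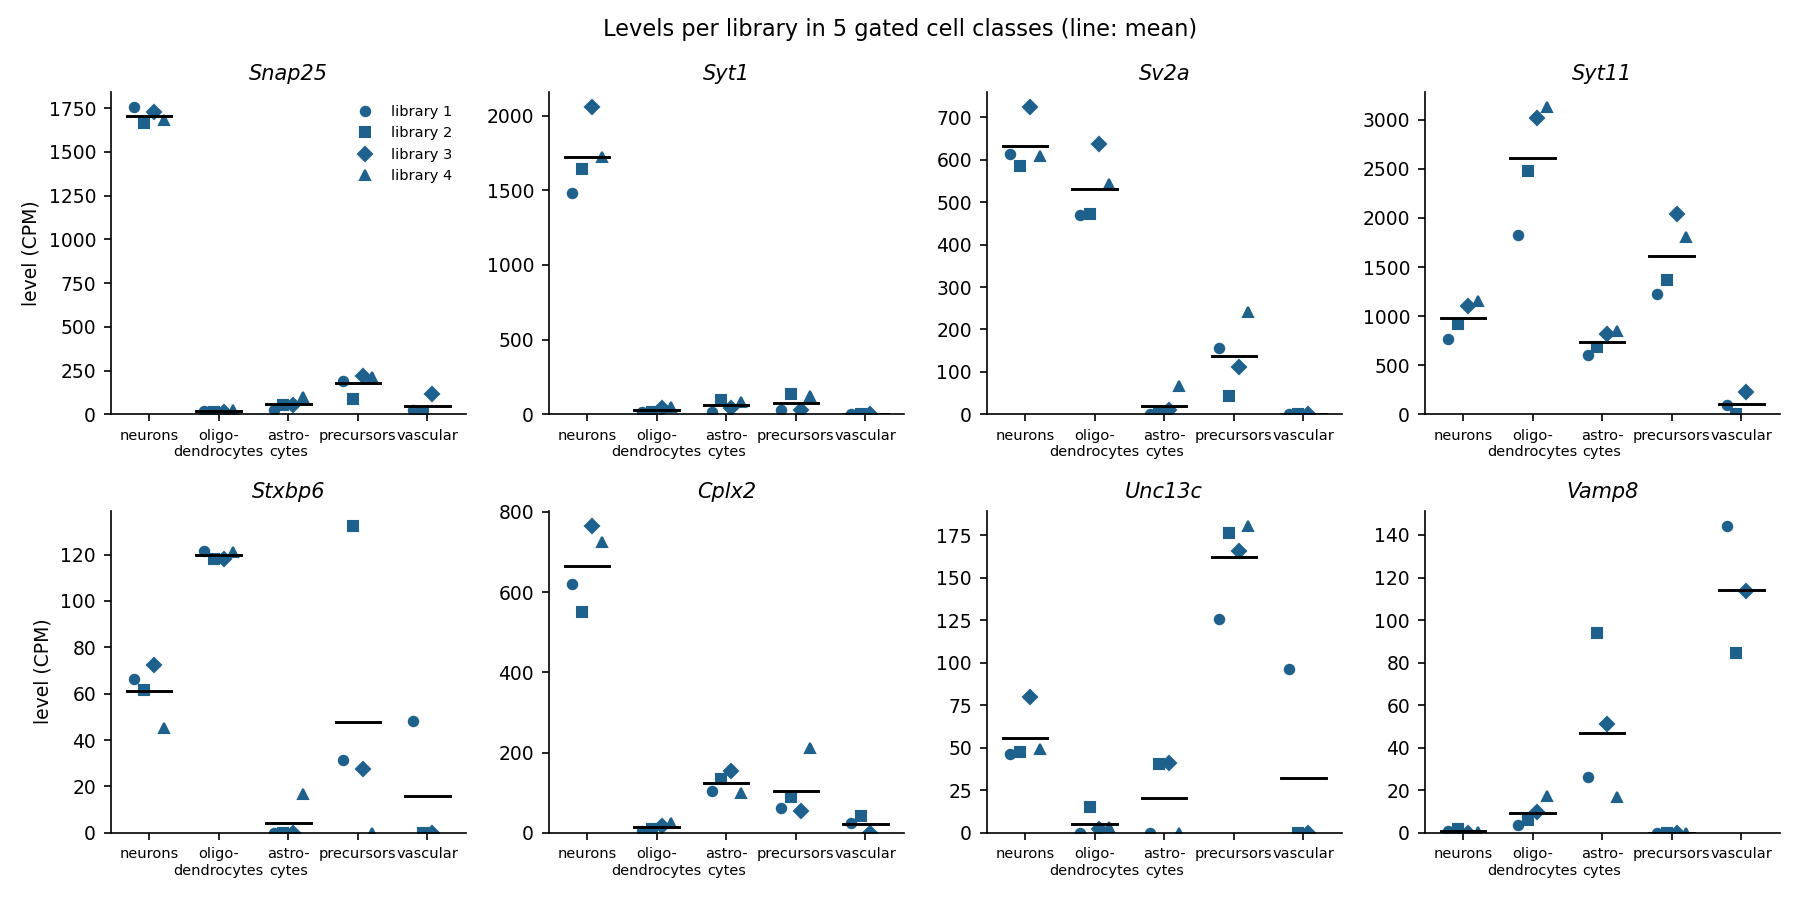
Level (y, CPM, linear axis) of 8 members in the 5 gated classes (x), with 1 marker per library and a line at the mean. Snap25 and Syt1 are highest in neurons, Sv2a overlaps between neurons and oligodendrocytes, Unc13c is highest in precursors and Vamp8 in vascular cells.

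Few members were called between transmitter classes, though a larger part of them (7.14%) than of all genes tested. GABAergic and glutamatergic neurons gave 1.22% ± 0.0828 and 1.22% ± 0.106 of their UMIs to the members, in libraries 1, 2 and 4 for the latter because library 3 had 7 glutamatergic cells. Of 56 members tested, 4 were called, 1 higher and 3 lower in GABAergic neurons (of all 9492 genes tested 2.40% were called, 1.50% higher and 0.906% lower). Cplx2 stood at 653, 550 and 733 CPM in GABAergic neurons and 303, 459 and 366 in glutamatergic neurons, log2 0.90 (SE 0.174, adjusted p = 2.91e-05). Sv2b went the other way, at 21.9, 33.1 and 35.0 CPM against 80.9, 91.9 and 68.7, log2 −1.60 (SE 0.340, adjusted p = 0.000249). Neither gene's ranges overlapped. Unc13c stood at 42.6 against 131 CPM (log2 −1.42, adjusted p = 0.000288, lower in 2 of 3 libraries) and Vamp1 at 55.3 against 109 (log2 −0.97, adjusted p = 0.0492). Snap25 (1697 ± 63.0 against 1943 ± 238 CPM), Syt1 (1630 ± 101 against 1435 ± 289) and Vamp2 (257 ± 37.5 against 242 ± 28.6) overlapped between the classes and were not called. The 4 calls rest on library 1, which holds 47 of the 83 glutamatergic cells: without it none passed (Cplx2 0.70, Sv2b −1.15, Unc13c −1.17, Vamp1 −0.62), without library 4 2 passed (Unc13c −1.16 and Vamp1 −0.95 did not), and DESeq2 called none of the 4. Over 14 alternatives Vamp1 kept its call in only 5, Unc13c in 11, and Cplx2 and Sv2b in 12 each.

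Among GABAergic neurons, subtypes with at least 10 cells in at least 3 libraries were compared, 9 in all and 35 sums. Members took 1.15% of UMIs in the subtypes lowest for the share (Slc17a8 and Ppp1r1b/Crym) and 1.32% ± 0.0308 in the highest (Tshz1/Foxp2). Over all 9 subtypes at once, 34 members were tested and 19 differed by edgeR's quasi-likelihood F-test, where 33.3% of all 3854 genes tested did. The largest F was that of Cplx2 (23.3, adjusted p = 1.91e-14), followed by Stxbp6 (11.5, adjusted p = 1.09e-08), Syn2 (11.3), Cplx1 (11.1, adjusted p = 1.85e-08), Unc13c (9.80) and Snap25 (9.17). Among the members not called, Syn1 had subtype means of only 133 to 152 CPM (F 0.0700, adjusted p = 1.00) and Vamp2 of 235 to 289 (adjusted p = 0.852). The release SNARE Vamp2 and the synapsin Syn1 thus showed no subtype difference beyond the spread between sums, while a complexin gave the largest F of the members tested.

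**Figure D3:**
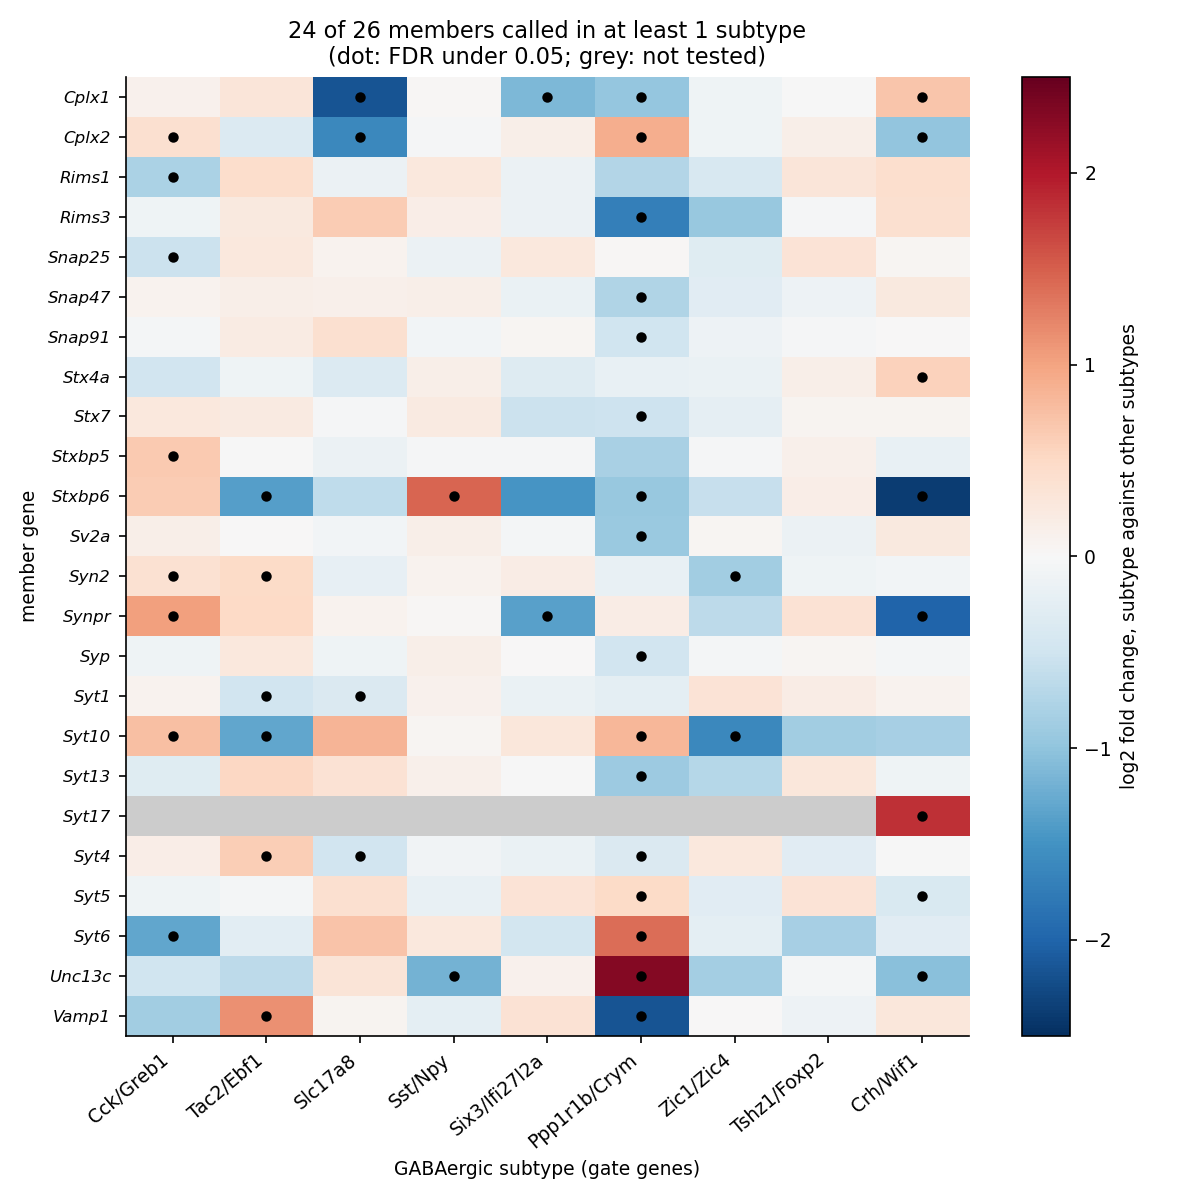
Fitted log2 difference (colour) between each GABAergic subtype (x) and the other subtypes for 24 of the 26 members (y) called at least once; dots mark calls and grey cells were not tested. Cplx1 and Cplx2 are low in Slc17a8 neurons, Unc13c is high and Vamp1 low in Ppp1r1b/Crym neurons, and Stxbp6 and Synpr are low in Crh/Wif1 neurons.

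Each subtype was then set against the other gated subtypes of the same libraries, which share cells between comparisons. In these fits 51 members were tested at least once and 50 calls were made, 18 higher and 32 lower, in 26 members. By subtype, 0% (Tshz1/Foxp2) to 35.4% (Ppp1r1b/Crym) of the members tested were called. Of all genes tested, 1.10% (Six3/Ifi27l2a) to 20.0% (Ppp1r1b/Crym) were. Ppp1r1b/Crym neurons gave 17 of the 50 calls. They also had the most calls over all genes, 1517 of 7573 tested, the next being Cck/Greb1 with 515 of 7397. Called in at least 3 subtypes were 8 members, and in both directions 11, counts that were not taken over all genes. Without library 1 the calls fell to 30, with DESeq2 to 22 and without the library block to 17. Of the 41 subtype calls whose gene is followed by name, 13 kept their call in each alternative run: Cplx1 and Cplx2 in Slc17a8, Stxbp6 in Sst/Npy, Vamp1, Rims3, Sv2a, Unc13c, Syt6 and Cplx2 in Ppp1r1b/Crym, Syn2 in Zic1/Zic4, and Stxbp6, Synpr and Cplx2 in Crh/Wif1.

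Neurons with Ppp1r1b and Crym, which encode DARPP-32 and a thyroid-hormone-binding protein and are typical of striatal projection neurons, had the most calls: 17 of 48 members tested, 5 higher and 12 lower (of all genes tested 20.0% were called, 9.88% higher and 10.2% lower). Unc13c stood at 191, 172, 254 and 136 CPM (188 ± 49.4) against 40.9 ± 19.3 in the other subtypes, log2 2.30 (SE 0.229, adjusted p = 4.43e-19). Cplx2 stood at 1066, 903, 1323 and 1278 CPM (1143 ± 195) against 612, log2 0.91 (SE 0.104, adjusted p = 5.01e-15), and Syt6 at 92.6 against 36.0, log2 1.39 (SE 0.285, adjusted p = 2.73e-05). A priming factor, a complexin and a synaptotagmin were thus higher in these neurons. The vesicle glycoprotein gene Sv2a fell, to 316, 312, 445 and 340 CPM (353 ± 62.4) against 668, log2 −0.92 (SE 0.129, adjusted p = 1.85e-10). Vamp1 stood at 15.5, 0, 21.2 and 15.1 CPM (13.0 ± 9.07) against 60.8, log2 −2.16 (SE 0.457, adjusted p = 5.23e-05), and the active-zone gene Rims3 at 27.1 against 98.3, log2 −1.71 (SE 0.337, adjusted p = 1.03e-05). Cplx1 stood at 56.9, 107, 169 and 98.3 CPM against 194, log2 −0.96 (SE 0.212, adjusted p = 0.000118), a call that was lost without library 1 (−0.67). Stxbp6 was lower by a log2 difference of −0.95, and its call was lost without library 1 (−0.99) or 3 (−0.72). Syp, Syt4, Syt13, Snap47, Snap91 and Stx7 were among the others called lower.

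In neurons gated by Slc17a8, the gene of the vesicular glutamate transporter VGLUT3, both complexins were low. Of 47 members tested 4 were called, all lower (of all genes tested 4.49% were called, 1.77% higher and 2.72% lower). Cplx1 stood at 26.8, 58.7, 66.4 and 23.7 CPM (43.9 ± 21.8) against 196, log2 −2.15 (SE 0.300, adjusted p = 2.41e-08). Cplx2 stood at 93.8, 270, 387 and 154 CPM (226 ± 130) against 694, log2 −1.62 (SE 0.164, adjusted p = 5.92e-14). Both were below the other subtypes in every library, and library 1 and library 4 were the lowest for both. Syt4 and Syt1 were lower by smaller amounts, −0.48 and −0.37; the call for Syt1 was lost without library 3 (−0.38) and with DESeq2. Snap25 was at 1853 ± 153 CPM in the same neurons.

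Neurons gated by Crh, the gene of corticotropin-releasing hormone, and Wif1 had 8 calls of 50 members tested, 3 higher and 5 lower (of all genes tested 5.88% were called, 2.69% higher and 3.19% lower). Stxbp6 stood at 7.43, 13.1, 16.0 and 21.6 CPM (14.5 ± 5.91) against 75.0, log2 −2.38 (SE 0.363, adjusted p = 1.54e-05), and Synpr at 11.1, 19.7, 64.1 and 37.8 (33.2 ± 23.4) against 120, log2 −2.00 (SE 0.275, adjusted p = 2.61e-06). Both fusion-limiting Stxbp6 and the vesicle protein Synpr were below the other subtypes in all 4 libraries. The complexins moved apart: Cplx2 stood at 249, 413, 369 and 405 CPM (359 ± 75.9) against 709, log2 −0.99 (SE 0.118, adjusted p = 1.71e-07), while Cplx1 stood at 245, 354, 184 and 319 (276 ± 75.8) against 172, log2 0.70 (SE 0.142, adjusted p = 0.000932; not called without the library block, with mitochondrial UMIs limited to 5% or with a stricter subtype gate). Cplx1 made up 49.6%, 46.2%, 33.3% and 44.0% of the complexin 1 and 2 UMIs in Crh/Wif1 neurons (43.3% ± 7.02) and 5.07%, 10.6%, 11.3% and 7.14% in Ppp1r1b/Crym neurons (8.55%). The difference was 34.7 ± 9.38 percentage points with the same sign in 4 of 4 libraries; the exact two-sided sign-flip permutation p was 0.13, the smallest that 4 libraries allow, and 0.286 after adjustment over 55 share comparisons. Over all neurons the share was 21.9%, and it was 17.0% in Slc17a8, 11.0% in Six3/Ifi27l2a, 18.8% in Cck/Greb1, 22.7% in Zic1/Zic4 and 30.5% in Tac2/Ebf1 neurons. Syt17, on 22 UMIs, was higher by 1.82 (adjusted p = 0.0117; 1.58 and not called without library 3).

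**Figure D4:**
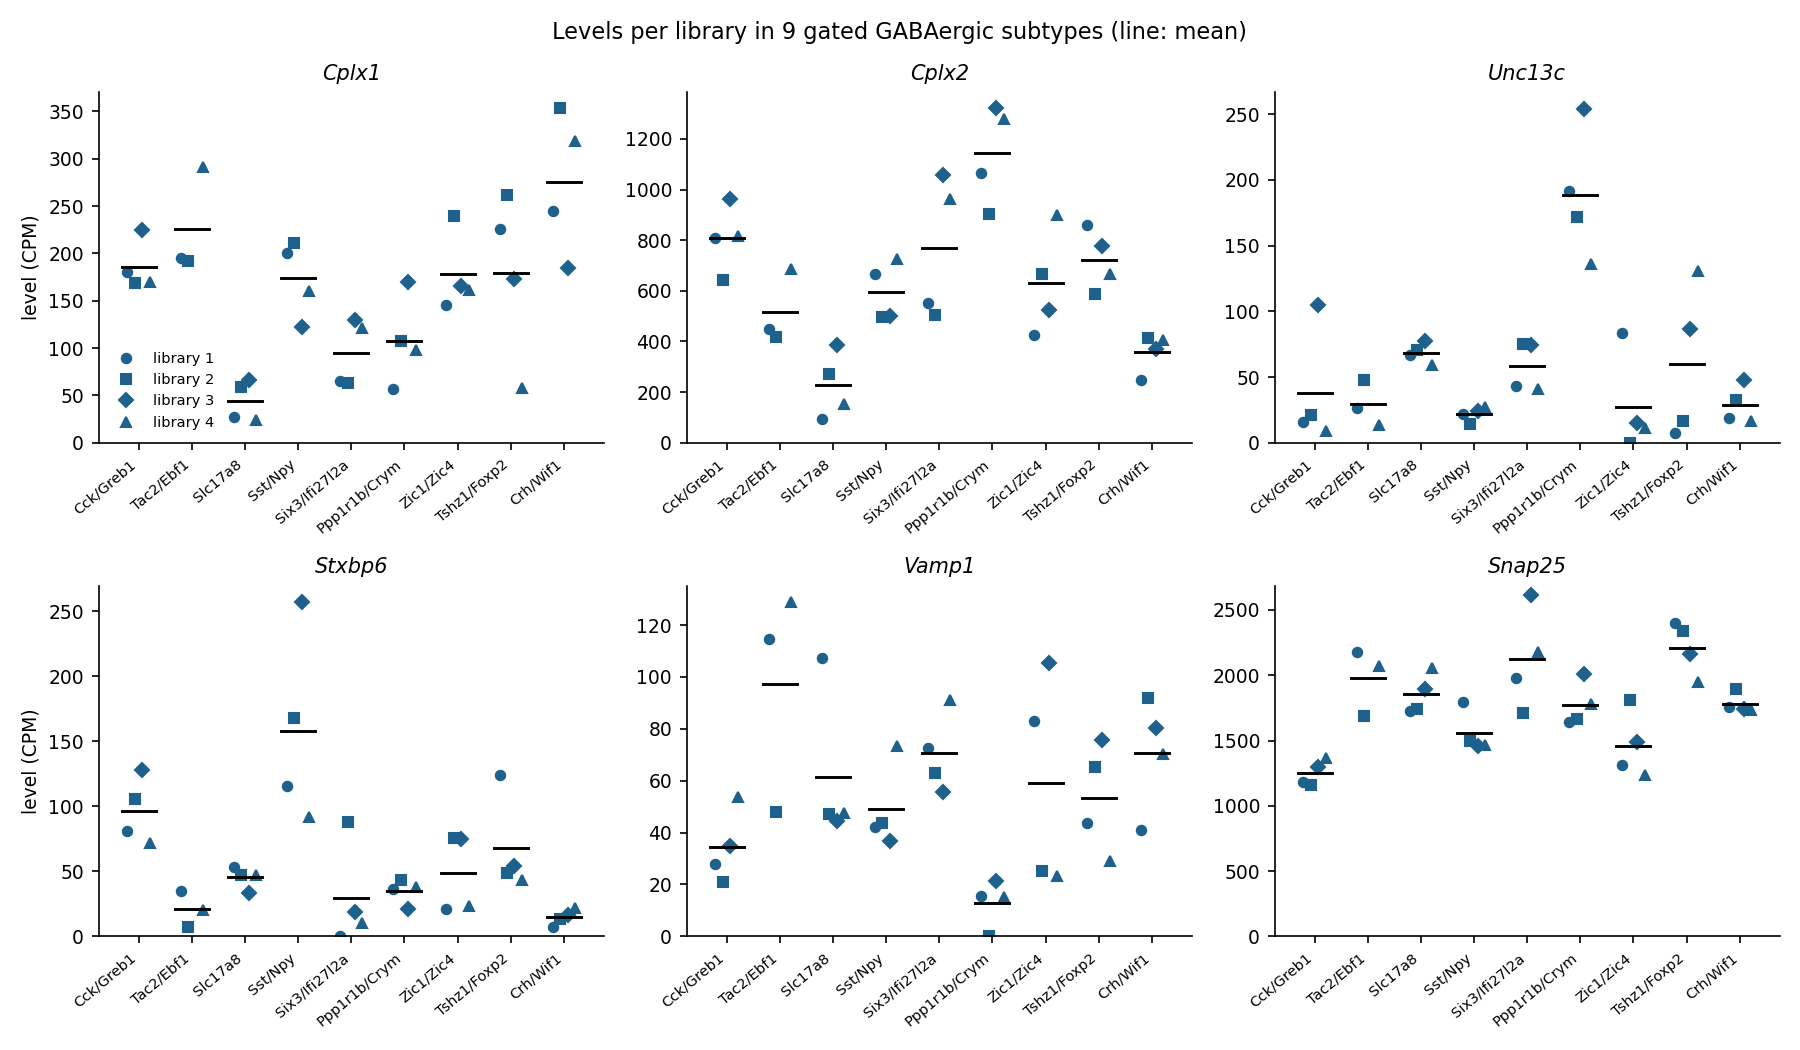
Level (y, CPM, linear axis) of Cplx1, Cplx2, Unc13c, Stxbp6, Vamp1 and Snap25 in the 9 tested GABAergic subtypes (x), with 1 marker per library and a line at the mean. Crh/Wif1 neurons are high for Cplx1 and low for Cplx2, and Ppp1r1b/Crym neurons are low for Cplx1 and high for Cplx2.

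The other subtypes had fewer calls. In neurons gated by Sst (somatostatin) and Npy, 2 of 49 members tested were called (of all genes tested 2.27% were, 1.38% higher and 0.893% lower): Stxbp6 stood at 116, 167, 257 and 91.7 CPM (158 ± 73.1) against 53.3, log2 1.46 (SE 0.193, adjusted p = 7.30e-07), and Unc13c was lower (log2 −1.17), a call lost without library 1 (−1.30), 2 (−1.08) or 3 (−1.07). Stxbp6 therefore had its lowest mean among the tested subtypes in Crh/Wif1 and its highest in Sst/Npy neurons. In Zic1/Zic4 neurons 2 of 48 were called (of all genes tested 1.84% were, 0.649% higher and 1.19% lower): Syn2 stood at 748, 478, 466 and 427 CPM (530 ± 147) against 956, log2 −0.86 (SE 0.13, adjusted p = 2.95e-06), and Syt10 was lower on 9 UMIs (log2 −1.61). The Syt10 call was kept in 6 of 15 alternatives and was lost, among others, without library 2 (−1.37), 3 (−1.53) or 4 (−1.33). Syn2 was below the other subtypes in each library, and Syn1 was at 133 ± 24.5 CPM in the same neurons. In neurons gated by Cck (cholecystokinin) and Greb1, 8 of 48 were called, 5 higher and 3 lower (of all genes tested 6.96% were, 3.57% higher and 3.39% lower). Snap25 stood at 1179, 1160, 1300 and 1370 CPM (1252 ± 100) against 1828, log2 −0.54 (SE 0.0776, adjusted p = 3.72e-08), and was not called without the library block. Snap25 was below the other subtypes in all 4 libraries, and Cplx2 (0.39) and Syn2 (0.38) were higher in the same neurons. Neither was called without the library block or with mitochondrial UMIs limited to 5%, and DESeq2 did not call Cplx2.

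In Tac2/Ebf1 neurons (libraries 1, 2 and 4, since library 3 had 9 cells) 7 of 50 members tested were called, 4 higher and 3 lower (of all genes tested 2.93% were, 1.46% in each direction). Syt4, which marks dense-core vesicles, stood at 627, 713 and 820 CPM (720 ± 96.7), log2 0.61 (SE 0.102, adjusted p = 0.000151). It was not called without the library block or with mitochondrial UMIs limited to 5%. Vamp1 (1.15) and Syn2 (0.48) were also higher, and neither call held without library 1 (0.79 and 0.43). In Six3/Ifi27l2a neurons Synpr (−1.36) and Cplx1 (−1.12) were lower, 2 of 49 tested (of all genes tested 1.10% were called, 0.296% higher and 0.808% lower); the Cplx1 call was lost without library 1 (−0.97) or 2 (−0.95), and the Synpr call without library 1 (−1.25) or 3 (−1.15). In Tshz1/Foxp2 neurons edgeR called 0 of 48 members (of all genes tested 1.12% were called, 0.519% higher and 0.600% lower). An unadjusted edgeR p under 0.05 was found for 5 of the 48 members and for 625 of all 7328 genes tested. The remaining gated subtypes were not tested: Lhx8/Rorb neurons, with at least 10 cells in 2 libraries only, had Cplx1 at 448 and 522 CPM, and Prkcd neurons, in library 2 only, had Cplx2 at 1068 and Snap25 at 1129.

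Genes of the vesicle cycle outside the 72 members gave the setting. Of 55 such genes (Nsf and its adaptors, active-zone scaffolds, Rab3 and its effectors, neurexins, endocytic genes and others) 53 were listed. Between neurons and non-neuronal cells 50 were tested and 47 called, 40 higher and 7 lower (71.0% of all genes tested were called); among the largest rises were Doc2a (5.98) and Svop (5.85), and the largest falls the broadly expressed Syngr2 (−5.72), Scamp2 (−3.30) and Dnm2 (−3.04). In oligodendrocytes 18 of 26 were called (54.5% of all genes), 11 higher, led by the membrane-bending genes Bin1 (4.35) and Sh3gl3 (4.28) and the vesicle GTPase Rab3a (2.85). In precursors 12 of 27 were called (36.5% of all genes), 7 higher, with Rph3a (5.74), Nrxn3 (3.49) and Cask (2.69) leading. In Ppp1r1b/Crym neurons 16 of 47 were called (20.0% of all genes), 13 of them lower, with Cadps2 (−3.77), Rab3b (−2.84) and the Rab3 effector Rph3a (−2.01) falling most and Erc2 (1.42) and Doc2b (1.21) rising most. Rab3b was higher in Sst/Npy neurons (1.79) and lower in Tac2/Ebf1 neurons (−2.05).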

How the data were processed

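The deposited files hold whole-number UMI counts per gene and cell barcode for each library, made by the authors; per the submitters' processing notes, bcl2fastq 2.18.0.12, STAR 2.4.2a and Picard 2.2.4 were used with mm10 (GRCm38). Whether counting used strand, and which annotation, is not given in the sources used here. Of 10200 barcodes listed with 14018026 UMIs, 4239 had at least 400 genes and at most 10% mitochondrial UMIs; 58 Scrublet doublets (scanpy 1.11.5) were removed, leaving 4181. A class needed 3 UMIs from 2 of its markers and 3 times the UMIs of each other class; a subtype needed 2 UMIs and 2 times those of any other. Raw counts were summed per class and library (at least 10 cells, at least 3 libraries) and tested with edgeR 4.0.16 (TMM, filterByExpr, quasi-likelihood test) blocked on library, because the sums compared were drawn from 1 pool of mice; p-values were adjusted by Benjamini-Hochberg over all genes tested, with a threshold of 0.05. CPM were computed from raw sums; TMM lowered the log2 difference between neurons and non-neuronal cells by 0.30 against plain CPM. Standard errors are the log2 difference over the square root of F. Each p-value sets a class difference against its variation over the 3 or 4 libraries entered, after the block takes out differences between libraries. edgeR steadies that variation with information from all genes tested, so very small values do not come from these libraries alone. The joint subtype test used 35 sums. Alternatives were DESeq2 1.42.0, RLE scaling, no filter, no block, other gates, and leaving out each library. Named were 22 core members and the 5 largest rises and falls per comparison with 1 sign in every library. Symbols alone set the members, but the choice of this gene set and of the lists was made with earlier results of these data known. Results for a few genes are not reported here, though counts include them. Scripts were tested on simulated data. The 169 cells without a class entered no comparison, and the 270 neurons without a transmitter class only that of neurons with non-neuronal cells.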

Additional observations from a re-analysis of the deposited data

Results flagged for a closer look

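In neurons, Synpr stood at 118 CPM in library 3 against 94.3, 91.5 and 93.1 in libraries 1, 2 and 4, a gap that is large for the range of the group. In non-neuronal cells, Sv2b stood at 2.56 CPM in library 4, which is 1 UMI, against 0 in the other libraries. Among 43 sets of 4 libraries searched for a sample standing apart, chance would give 2.15, and 2 were found. The 5642 barcodes under 400 genes, which enter no comparison, gave 0.783% of their UMIs to the members.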

How the results depend on the processing

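No result followed by name changed direction in any alternative run. Most of these calls were chosen for having 1 sign in every library, which made a reversal unlikely from the outset. Of 1377 alternative values for 98 calls followed by name, 1211 kept the call and 166 lost it. The neuron count (56 members called) was 53 to 56 with 1 library left out. The count over the glial and vascular classes (40) was 67 with no filter on low counts, which tests more members, 19 with at least 800 genes per cell and 22 with mitochondrial UMIs limited to 5%, where only 3 classes could be tested; it was 36 to 42 with 1 library left out. The 4 GABAergic against glutamatergic calls became 0 with DESeq2 and 0 to 4 with 1 library left out. The 50 subtype calls became 22 with DESeq2, 29 with mitochondrial UMIs limited to 5% and 30 to 42 with 1 library left out; the joint subtype test (19) gave 16 to 18. Without the replicate block, which pairs sums of 1 pool and library, the calls were 53 for neurons, 40 for glial and vascular classes, 3 for transmitter class, 17 for the subtypes and 15 in the joint test. Thinned to 500 in place of 1000 UMIs, Snap25 was found in 54.1% of neurons and Sv2a in 22.8% of oligodendrocytes; with 1 library left out at 1000 UMIs they gave 77.2% to 78.0% and 39.8% to 43.3%. The difference in Cplx1 share between Crh/Wif1 and Ppp1r1b/Crym neurons was 31.5 to 39.0 points, and that of the Vamp1 share between GABAergic and glutamatergic neurons (−12.5 points) −17.1 to −10.1. For the values that moved, the cause was not tested unless stated. RLE in place of TMM moved the vascular log2 differences by −0.19. Depth limits precursors and vascular cells most: a level of 3 UMIs there is 24.2 and 36.4 CPM.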
